A study of Arabidopsis thaliana with 4 samples.

Results

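Transcripts of the plastid and mitochondrial genomes were followed in shoot apices of Arabidopsis thaliana through 150 of the 22746 probe sets of the array. The 150 were chosen by probe set number alone, every probe set numbered from 244901 to 245050. By the annotation, this run covers most protein-coding genes of the plastid genome but a minority of those of the mitochondrial genome. The rule itself holds no measured value, though it was set with earlier results of these data known. The platform annotation and the reference gene table (assembly TAIR10.1) placed 77 of them on the plastid genome and 13 on the mitochondrial genome. These 77 represent 76 of the 78 protein-coding gene names of the plastid genome, and the 13 represent 14 of 32 such names of the mitochondrial genome. The run is not purely organellar. Of the remaining 60, 5 were annotated to loci of the At2g07 group on chromosome 2 and 10 to loci of the At2g26 group on the same chromosome. Another 45 had no gene in the annotation used here, 10 of them numbered within the stretch of At2g26 probe sets and 35 among the organelle probe sets. Results below are therefore given for the plastid and mitochondrial members first and for the others apart.

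The plastid genome encodes core subunits of both photosystems, the cytochrome b6f complex, the ATP synthase, the NDH complex and the large subunit of Rubisco, together with part of the plastid ribosome and a bacterial-type RNA polymerase. The mitochondrial genome encodes subunits of the respiratory chain and factors for cytochrome c maturation. Many plastid genes are transcribed together in clusters and then cut and trimmed, and nuclear genes supply most of the organelles' proteins and all sigma factors of the plastid polymerase. Chromosome 2 carries a large insertion of mitochondrial DNA, so a probe set for a mitochondrial gene can also match nuclear sequence.

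Each of 4 groups was measured on 1 array, from total RNA labelled as biotinylated cRNA. Wild-type plants (Col-0) and plants with as2-1, a mutant allele of the nuclear gene AS2, a regulator of leaf polarity, in the Col-0 background, were grown for 14 days on agar with 16 hours of light and 8 hours of dark. The medium held either 10-hydroxycamptothecin (10H-CPT), an inhibitor of DNA topoisomerase I, or only its solvent DMSO, and the labels give no dose. The apices, harvested with their leaf primordia, held all cell types of that tissue, and the labels do not say how many plants a sample pooled or whether samples came from separate cultures. The deposited values are MAS5 signals, a linear brightness per probe set. The standard Affymetrix labelling primes on poly(A) tails, and in plant organelles a tail mostly marks a transcript for decay. How far the signals follow intact transcripts was not tested.

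The 4 arrays had trimmed mean signals between 198.3 and 198.5 and between 13590 and 13711 probe sets above a floor of 46.6, the 40th percentile of all signals. AS2 and the topoisomerase I genes had no probe set named in the annotation used here, so the labels could not be checked against them. Among markers of the tissue, CLV3 and LEP of the shoot apex were below the floor on all 4 arrays. The other 11 listed apex symbols could not be matched. Of 11 listed leaf primordium symbols 3 were matched, YAB3, YAB5 and PHV, and they were above the floor on all 4. Of 7 listed root symbols only EXPA7 was matched, and it was below the floor on all 4. No listed marker of expanded green leaves could be matched, so the part of green tissue in any change of plastid signal was not tested. In bulk tissue fewer cells of a type and less RNA per cell cannot be told apart.

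Plastid probe sets lay above the floor more completely than mitochondrial ones. Of the 77 plastid members, 69 lay above the floor on all 4 arrays, 4 crossed it and 4 (ycf2, ndhB, ndhF and rpoB) stayed below it on every array. Of the 13 mitochondrial members 7 lay above it on all 4 arrays and 5 stayed below, among them nad7, nad6 and matR. Of the 35 unannotated probe sets among the organelle run, 28 were below the floor on all arrays. A probe set below the floor on both arrays of a pair was left out of that pair, and all counts are of those that remain, called measured here. Brightness depends on the probes, so levels are compared between arrays and not between genes.

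The clearest shared feature was a lower plastid signal in as2-1 than in Col-0 when both were grown on 10H-CPT. There 68 of the 72 measured plastid members were lower in as2-1 and 4 higher, where 50.9% of all measured probe sets were below 0 and 49.1% above. The median difference was -0.24 on the log2 scale (quartiles -0.40 and -0.15), or 1.18-fold, against a median of -0.01 over all probe sets. The 4 exceptions were ndhG, psbE, psbF and psbN, between 0.01 and 0.12. On DMSO 39 of 72 plastid members were lower in as2-1 and 33 higher, with a median of -0.05, where 48.7% of all probe sets were lower and 51.3% higher. This balance depended on the scaling. After quantile normalization 47 of 72 were lower on DMSO, with a median of -0.07, and 65 of 72 on 10H-CPT, with a median of -0.18. Below 0 in both treatments were 34 of 71 plastid members and above 0 in both none, where 29.7% of all probe sets were below and 29.7% above. The treated mutant set against the untreated wild type gave 48 of 72 below 0, where 51.5% of all probe sets were, and a median of -0.12. All these pairs compare 1 array with 1 array, so a shift of this size has no replicate check.

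**Figure D1:**
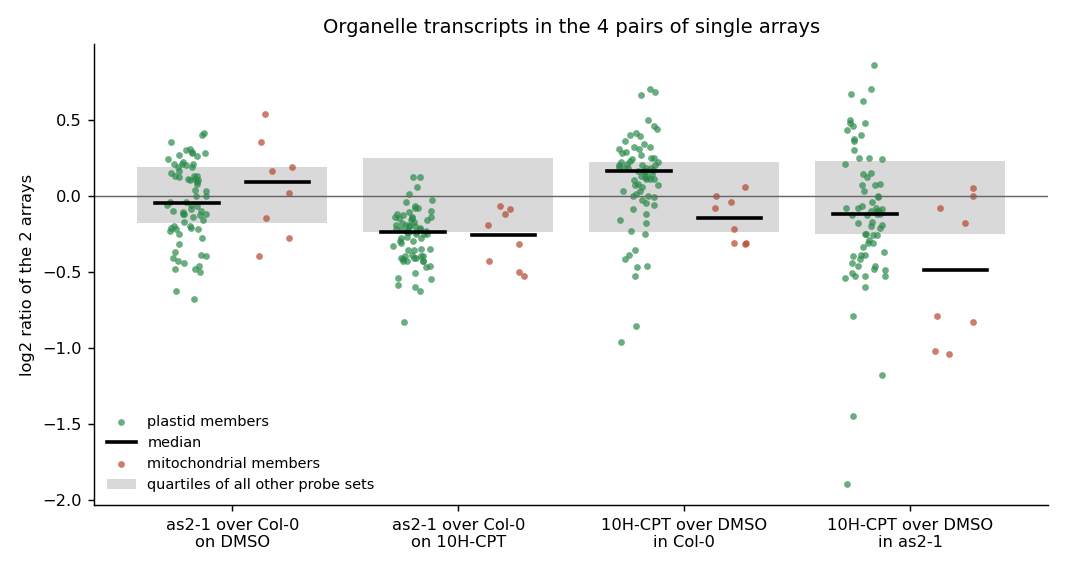
Log2 ratio (vertical axis) of each measured plastid (green) and mitochondrial (red) member in the 4 pairs of single arrays named on the horizontal axis, with class medians (black bars) and the quartiles of all other probe sets (grey). Between as2-1 and Col-0 on 10H-CPT, 68 of 72 plastid members and all 8 measured mitochondrial members lie below 0, where 50.9% of all probe sets do.

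Plastid members on 10H-CPT and on DMSO differed by less than 2-fold in nearly every case, and in Col-0 most were higher on the inhibitor. There 53 of 73 measured plastid members were higher on 10H-CPT and 20 lower, at a median log2 ratio of 0.16, while 49.2% of all probe sets were above 0 and 50.8% below. In as2-1 only 24 of 72 were higher and 48 were lower, with a median of -0.12, where 47.5% of all probe sets were above 0 and 52.5% below. After quantile normalization 43 of 72 were lower in as2-1, with a median of -0.08, and 21 of 73 in Col-0, with a median of 0.12. The array of as2-1 on 10H-CPT enters both this comparison and the one with Col-0 on 10H-CPT, so their values are not separate. Summed over the plastid members, the signal was lowest on that array. These members held 2.91% of all signal in Col-0 without the inhibitor and 3.12% with it, and 3.03% in as2-1 without it and 2.75% with it.

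Which plastid genes stood higher or lower on 10H-CPT was alike in the 2 genotypes, although the 2 pairs share no array. Across the 69 plastid members that cleared the floor everywhere, the inhibitor's log2 ratios in both genotypes had a Pearson's r of 0.731 and a Spearman's rho of 0.652, compared with 0.488 and 0.392 over 12624 other probe sets. The plastid members had a median mean signal of 1385.2, and all other probe sets, dim ones included, of 89.6. No background of like brightness was compared. Leaving out the 3 plastid members at least 2-fold lower on 10H-CPT (atpH, psaC and petL), an alternative chosen after seeing the data, r was 0.544 and rho 0.603 over 66. The 2 genotype ratios correlated with r of 0.006 over the 69 members, compared with 0.376 over the 12624 other probe sets. Members share their array and some share a transcript, so these coefficients describe the 4 arrays and carry no p. In both genotypes, 22 of 72 plastid members were above 0 on 10H-CPT and 18 below. Over all probe sets these shares were 29.8% and 33.6%, so the number of shared directions was near the background. The likeness lay in the order of the members.

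**Figure D2:**
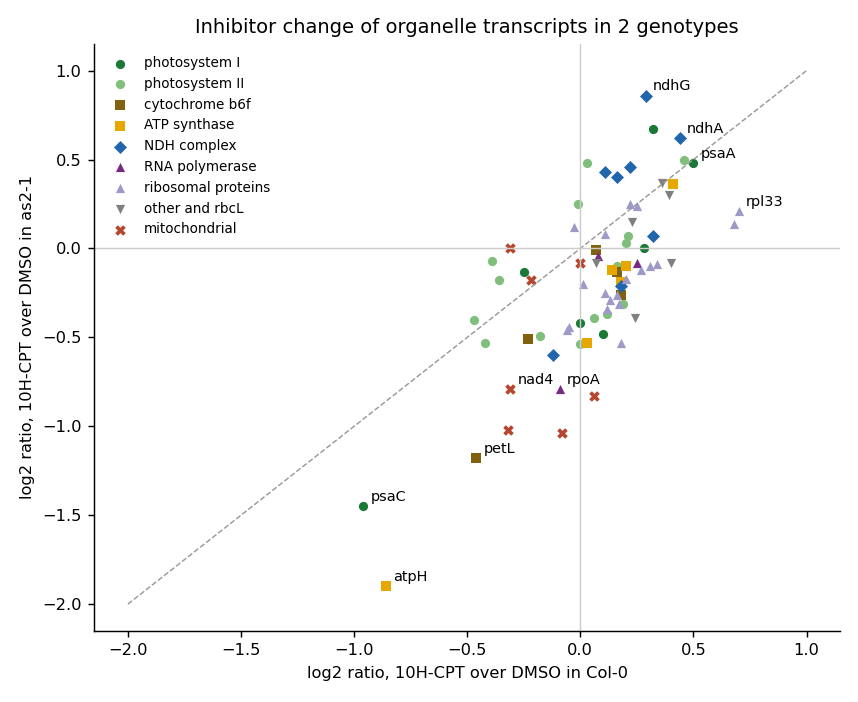
Log2 ratio of 10H-CPT over DMSO in Col-0 (horizontal axis) and in as2-1 (vertical axis) for plastid members above the floor on all 4 arrays, by the complex or role they were listed under (ccsA with b6f), and for mitochondrial members (crosses). The dashed line marks equal ratios. atpH, psaC and petL lie farthest down, and most points lie below the line.

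The ATP synthase gene atpH had the largest fall of any named organelle member in as2-1 and averaged over the genotypes, while in Col-0 psaC lay lower. atpH encodes the subunit that forms the rotating ring of the plastid ATP synthase in the membrane. Without the inhibitor its signal was 2150.5 in Col-0 and 2483.9 in as2-1, and with it 1179.4 and 665.9. Both inhibitor arrays lay below both DMSO arrays, 1.82-fold in Col-0 and 3.73-fold in as2-1. Over all probe sets 33.6% were below 0 in both genotypes, and how many had no overlap of the treatments was not counted. A limma model with additive terms for genotype and treatment was fitted to all 4 arrays. For atpH it gave a treatment effect of -1.38 ± 0.26 (SE) on the log2 scale and a Benjamini-Hochberg adjusted p of 0.0453 over 13767 probe sets. The model has 1 residual degree of freedom, and its error is how far the arrays depart from additivity, so this p does not measure spread between plants. The call was lost with the values as deposited, whose scaling differs by factors between 0.9994 and 1.0006 only, after quantile normalization, and with a trended, robust variance in limma.

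psaC, which encodes the iron-sulfur subunit that passes electrons to ferredoxin in photosystem I, was the other plastid gene called lower on 10H-CPT by limma. Its signals were 229.5 in Col-0 and 223.0 in as2-1 without the inhibitor, and 118.2 and 81.5 with it. The groups with inhibitor lay 1.94-fold and 2.74-fold below those without, and the genotypes were almost equal on DMSO. The limma treatment effect was -1.20 ± 0.20 on the log2 scale, adjusted p 0.0292. These were 2 of 3 members called lower for treatment among 98 tested, where 1.66% of all probe sets were. No member was called higher, where 1.31% of all were; 6 of the 98 had an unadjusted limma p under 0.05 and a positive effect and 12 a negative one, together 18.4%, compared with 17.1% of all probe sets. With a floor at the 20th percentile of all signals the fit called 0 members, with 12.8% of 133 at an unadjusted p under 0.05 and 14.2% of all probe sets. With a floor at the 60th percentile psaC was not called.

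The gene petL was lower on both inhibitor arrays without passing the test. petL encodes a small subunit of the cytochrome b6f complex. Without the inhibitor its signals were 377.9 in Col-0 and 401.5 in as2-1, and with it 274.4 and 177.4, with a limma adjusted p of 0.118. Its neighbour on the plastid genome, petG, another small subunit, was lower on 10H-CPT as well, by 0.23 and 0.51 on the log2 scale. The b6f list also holds ccsA, which does not encode a subunit of the complex. In as2-1 all 6 measured members of the list were below 0 on 10H-CPT against DMSO, with a median of -0.36, where 52.5% of all probe sets were. However, petB and petA lay at -0.01 and -0.13, and petB was above 0 after quantile normalization (0.18). In as2-1, 3 of 72 plastid members (atpH, psaC and petL) lay 2-fold or more below their DMSO signal, compared with 2.3% of all measured probe sets. In Col-0 none was, where 2.1% of all were.

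**Figure D3:**
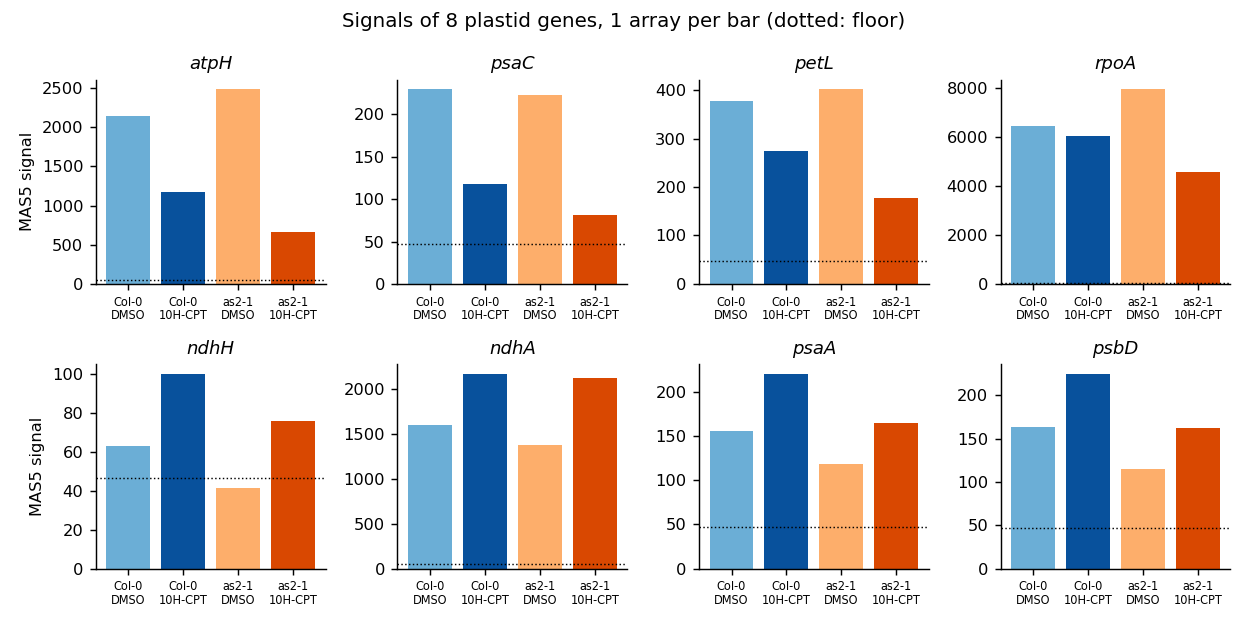
MAS5 signal (vertical axis, from 0) of 8 plastid genes on the 4 arrays (horizontal axis, 1 array per bar, no replicates), with the floor dotted. The upper row holds genes lower on 10H-CPT in as2-1 (atpH, psaC, petL and rpoA) and the lower row genes higher on it in both genotypes (ndhH, ndhA, psaA and psbD).

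Transcripts for the NDH complex were mostly higher on 10H-CPT, in Col-0 like most plastid members and in as2-1 unlike them. The plastid NDH complex returns electrons from ferredoxin to the plastoquinone pool around photosystem I. Of its 11 members 9 were measured, 8 of them higher on 10H-CPT in Col-0 (median 0.22 on the log2 scale) and 7 higher in as2-1 (median 0.43). In Col-0, 53 of 73 plastid members (median 0.16) and 49.2% of all probe sets were higher. In as2-1, 24 of 72 plastid members (median -0.12) and 47.5% of all probe sets were. ndhA had signals of 1598.2 in Col-0 and 1377.0 in as2-1 without the inhibitor, and of 2164.0 and 2123.9 with it. Both inhibitor arrays lay above both DMSO arrays, by 1.36-fold and 1.54-fold. For ndhG they were 100.9 and 73.5 without, and 123.0 and 133.5 with it, again without overlap of the treatments. Over all probe sets 29.8% were above 0 in both genotypes, and those without overlap of the treatments were not counted. ndhH was at 63.2 in Col-0 without the inhibitor and 1.58-fold higher with it. In as2-1 it was at 41.6 without, which is below the floor, and at 75.8 with it, at least 1.63-fold higher. None passed the test in limma: the adjusted p was 0.189 for ndhA and 0.101 for ndhH. ndhD was lower in both genotypes, by 0.12 in Col-0 and by 0.60 in as2-1, and ndhC in as2-1, at -0.21.

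Between the genotypes on DMSO the NDH genes were split. There 6 of 9 were lower in as2-1 than in Col-0, where 48.7% of all probe sets were, at a median log2 ratio of -0.41, which was -0.21 with a floor at the 60th percentile. ndhE had signals of 288.6 in Col-0 and 186.0 in as2-1 without the inhibitor, then 323.0 and 245.4 with the inhibitor. ndhJ had 1145.5 and 862.0, then 1233.9 and 1166.3, and ndhK 843.1 and 602.1, then 982.7 and 829.6. In each of these 3 the as2-1 array on DMSO was the lowest of the 4. ndhC, ndhI and ndhD were above 0 in the mutant on DMSO, at 0.27, 0.10 and 0.11, of which ndhI was below 0 after quantile normalization. No member was called for genotype by limma, in either direction, among 98 tested, where 0.138% of all probe sets were called higher and 0.283% lower. At an unadjusted limma p under 0.05, 2 members were higher and 7 lower in as2-1, together 9.18% of those tested, compared with 12.8% of all probe sets.

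Photosystem genes split within each complex. psaA and psbD, for core reaction centre proteins of photosystems I and II, were higher on 10H-CPT in both genotypes and lower in as2-1 in both treatments. Without the inhibitor psaA had signals of 155.5 in Col-0 and 118.2 in as2-1, and with it 220.2 and 165.3. Those of psbD were 162.7 and 114.8 without, and 224.2 and 162.0 with it. For both genes the Col-0 array on 10H-CPT was the highest and the as2-1 array on DMSO the lowest, with folds of 1.38 to 1.42 between treatments. The limma treatment effects of 0.49 ± 0.17 and 0.48 ± 0.17 had adjusted p-values of 0.214 and 0.227. psbB and psbT, whose genes lie side by side, went the other way. psbB, for an antenna protein of the photosystem II core, had 320.9 in Col-0 and 242.3 in as2-1 without the inhibitor, then 239.1 and 168.0 with it. It lay 1.34-fold and 1.44-fold lower on the inhibitor, and 1.32-fold and 1.43-fold lower in as2-1. The gene psaJ, for a small subunit of photosystem I, had 1093.4 and 807.9 without it, then 1361.9 and 1290.3 with it. The gene psbM, for a small subunit of photosystem II, had 5754.3 in as2-1 on DMSO and between 8035.0 and 9390.0 on the other 3 arrays. Its genotype difference on DMSO, -0.68 on the log2 scale, was the lowest of the plastid members. psbA, which encodes the D1 protein of photosystem II, and rbcL, the large subunit of Rubisco, were not called by the test for either factor. psbA had signals of 1113.4, 1162.9, 1132.9 and 866.0 and rbcL of 1418.1, 1488.5, 1234.0 and 1172.6, in the order Col-0 without and with the inhibitor, then as2-1 without and with it. In both, as2-1 on 10H-CPT gave the lowest value.

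Genes of the plastid's own expression machinery were close to the median of the plastid set. The 20 ribosomal protein probe sets had medians of 0.16 in Col-0 and -0.18 in as2-1 for the inhibitor. All 19 measured ones were lower in as2-1 than in Col-0 on 10H-CPT (median -0.24), where 50.9% of all probe sets were. rpl33 and rps16 were highest for the inhibitor in Col-0, at 0.70 and 0.68 on the log2 scale, and stood at 0.21 and 0.14 in as2-1. rps12 had 2 probe sets. The inhibitor's log2 ratios were 0.22 and 0.01 in Col-0, then 0.25 and -0.20 in as2-1, so probes for 1 gene disagreed in direction in as2-1. Among the polymerase genes, rpoA, the alpha subunit, had signals of 6428.5 in Col-0 and 7929.2 in as2-1 without the inhibitor, then 6049.2 and 4581.2 with it. It was 1.73-fold lower on the inhibitor in as2-1 and 1.06-fold lower in Col-0. rpoC1 and rpoC2 differed by 0.25 or less on the log2 scale between treatments, and rpoB stayed below the floor. clpP, a protease subunit gene, and accD, for a subunit of the acetyl-CoA carboxylase that starts fatty acid synthesis, were higher on 10H-CPT in both genotypes, clpP by 1.31-fold and 1.23-fold and accD by 0.23 and 0.15 on the log2 scale. For ycf1 the log2 ratio was 0.24 in Col-0 but -0.39 in as2-1.

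Neighbouring genes of one transcribed cluster had unlike ratios in some places and like ones in others. The clusters, taken from textbook knowledge after the values were seen, were checked for gene order in the reference table. In the cluster that runs from ndhH to ndhD, the first 5 genes (ndhH, ndhA, ndhI, ndhG and ndhE) were above 0 on 10H-CPT in both genotypes, psaC stood at -0.96 and -1.45, and ndhD at -0.12 and -0.60. In the cluster from atpI to atpA, atpH was at -0.86 and -1.90 between neighbours at 0.18 and -0.19 (atpI) and at 0.41 and 0.36 (atpF). From psbB to petD, psbB and psbT were below 0 in both genotypes, at -0.42 and -0.53 and at -0.47 and -0.40, while psbH was at 0.20 and 0.03. The psaA probe set was at 0.50 and 0.48 and that of psaB, next to it, at 0.00 and -0.42. Each single-copy plastid gene above the floor on all arrays was also paired with the next such gene on the genome. These 62 pairs skip the genes left out, such as rpoB, and cross the borders of clusters. Their inhibitor ratios correlated with r of 0.234 in Col-0 and 0.028 in as2-1, as a description of these arrays.

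**Figure D4:**
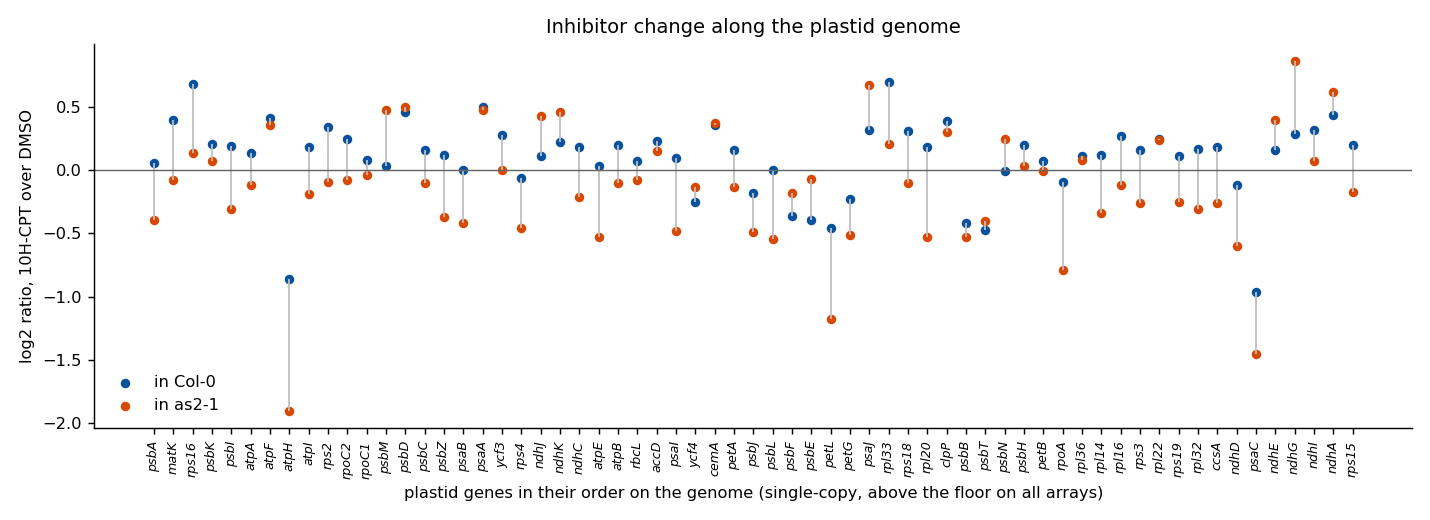
Log2 ratio of 10H-CPT over DMSO (vertical axis) in Col-0 (blue) and as2-1 (orange) for single-copy plastid genes above the floor on all 4 arrays, in their order on the plastid genome (horizontal axis, not to distance). atpH and psaC stand apart from their neighbours in both genotypes, petL mainly in as2-1, and the orange point is mostly the lower of the pair.

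Mitochondrial members were lower on 10H-CPT than on DMSO, mainly in as2-1. In as2-1, 7 of 8 measured members were below 0 at a median log2 ratio of -0.49, where 52.5% of all probe sets were. These 7 include mttB, with 73.1 without the inhibitor and 73.0 with it. In Col-0 6 of 8 were below 0 with a median of -0.15, where 50.8% of all probe sets were. After quantile normalization the counts were 6 of 8 in as2-1 and 7 of 8 in Col-0. nad4, for a subunit of respiratory complex I, had signals of 1710.6 in Col-0 without the inhibitor and 1376.3 with it, and of 1909.6 and 1102.1 in as2-1. nad9, also of complex I, had 155.4, 161.3, 197.8 and 111.6 in the same order. ccmFC, for a cytochrome c maturation factor, had 473.9, 377.9, 540.7 and 267.4, and probe set 244944_s_at, annotated to more than 1 mitochondrial gene, 985.0, 931.4, 1425.8 and 693.6. In all 4 the as2-1 array on DMSO was the highest and that of as2-1 on 10H-CPT the lowest. How many of all probe sets had this order was not counted, here or for the probe sets below. ccmFC and 244944_s_at were 2.02-fold and 2.06-fold lower on 10H-CPT in as2-1. ccmFN1, for another maturation factor, stayed between 1323.7 and 1397.8 on all 4 arrays. cox2, of complex IV, had 67.3, 57.8, 60.4 and 53.3, just above the floor. mttB had 96.8, 77.8, 73.1 and 73.0, and nad4L, of complex I, 56.8, 55.0, 37.5 and 48.3, so these 3 dim members were highest in untreated Col-0. No mitochondrial member passed the limma test, and the lowest of the adjusted p-values named here was that of ccmFC, 0.18. Of the 13 mitochondrial members, those ending in _s_at can match more than 1 sequence. Without them, the median for the inhibitor was -0.18 in as2-1 and -0.04 in Col-0, over 5 members.

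Probe sets for mitochondrial genes also lay outside the number range. Of 11 such probe sets 4 lay above the floor on all arrays, and all 4 were lowest in as2-1 on 10H-CPT. cox1, for a subunit of complex IV, had 687.4 in Col-0 without the inhibitor and 524.4 with it, and 695.1 and 356.7 in as2-1. It was 1.95-fold lower on 10H-CPT in as2-1 and 1.31-fold lower in Col-0. An nad5 probe set (257338_s_at) had 113.2, 98.0, 122.4 and 67.5, and 2 nad1 probe sets, 257322_at and 257324_at, had 105.5, 94.6, 127.2 and 74.5, and 75.8, 63.7, 75.1 and 56.5. In 257324_at untreated Col-0 was the highest array, and in the other 3 untreated as2-1 was. These 4 come from the same arrays and are no replicate of the others.

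The probe sets annotated to At2g07 loci, whose region of chromosome 2 holds the mitochondrial insertion, were highest in untreated as2-1 and lowest in as2-1 on 10H-CPT in the 2 that could be measured. AT2G07751 had signals of 573.9, 532.7, 682.4 and 329.6 and AT2G07708 of 366.0, 324.0, 440.3 and 245.2, again in the order Col-0, then as2-1, each first without the inhibitor. The other 3 stayed below the floor. Both carry the _s_at ending, so nuclear and mitochondrial RNA cannot be told apart there. The unannotated probe sets 244903_at (412.8, 308.1, 451.0 and 188.7) and 244906_at (184.8, 147.1, 219.3 and 99.4), numbered among the mitochondrial ones, had the same order of arrays and were 2.39-fold and 2.21-fold lower on 10H-CPT in as2-1. The other 3 unannotated probe sets of the organelle run above the floor on all arrays differed from that order. 244921_s_at had 313.4, 212.0, 214.6 and 151.0, 244979_at 2829.6, 3073.9, 2588.1 and 2741.2, and 244981_at 1229.9, 1271.1, 1154.8 and 954.3.

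**Figure D5:**
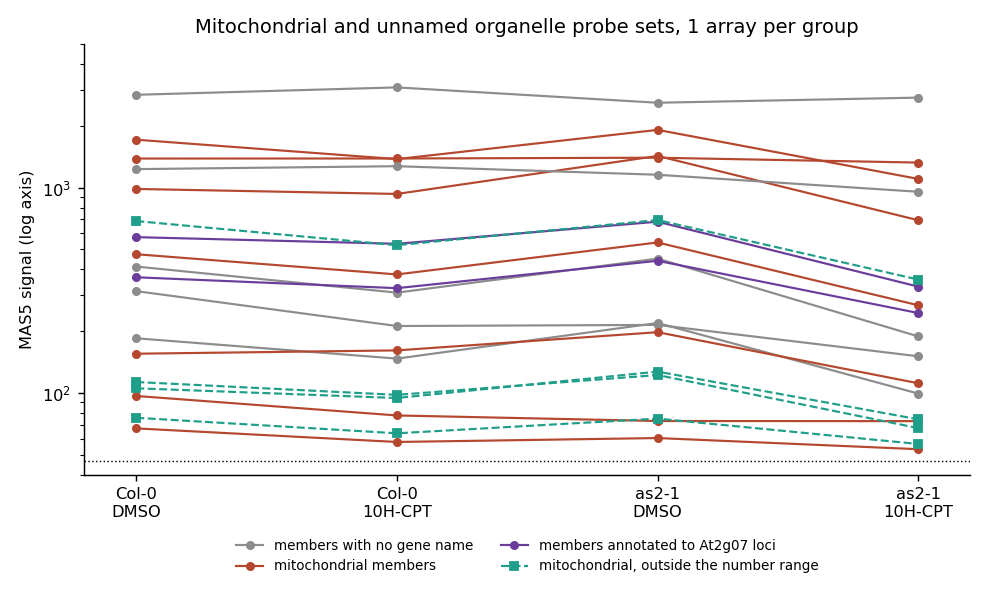
MAS5 signal (vertical log axis) on the 4 arrays (horizontal axis, 1 array each) of mitochondrial members (red), members annotated to At2g07 loci (purple), unannotated members of the organelle run (grey) and mitochondrial probe sets outside the number range (dashed), all above the floor (dotted) on every array; lines join values of 1 probe set. Most lines peak at as2-1 on DMSO and are lowest at as2-1 on 10H-CPT, while ccmFN1 and the brightest unannotated probe set stay nearly level. The share of all probe sets with that order was not counted.

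The inhibitor's ratio was mostly smaller in the mutant among plastid members. The log2 ratio of 10H-CPT over DMSO was smaller in as2-1 than in Col-0 for 55 of 73 plastid members (51.6% of all probe sets), with a median difference of -0.29. After quantile normalization it was smaller for 46 of 73, with a median of -0.12. The 7 members of the b6f list, ccsA among them, were all below 0 (6 after quantile normalization), as were 17 of 20 ribosomal ones (15) and only 3 of 9 NDH ones (2). All 6 ATP synthase members were below 0, but only 3 of them after quantile normalization. atpH had the lowest difference, -1.04, the only member past 2-fold in that direction, where 1.29% of all measured probe sets were. None was past 2-fold in the other direction, where 2.59% were. ndhG had the highest among plastid members, 0.57. With 1 array per group these differences have no test.

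Of the nuclear genes inside the number range, YAB5 stood out between the genotypes. YAB5, a YABBY family regulator of leaf polarity and lamina growth, had signals of 63.8 in Col-0 and 114.4 in as2-1 without the inhibitor, then 75.7 and 137.6 with it. The mutant arrays lay above both wild-type arrays, by 1.79-fold and 1.82-fold, and the limma genotype effect was 0.85 ± 0.17 with an adjusted p of 0.104. Over all probe sets 29.7% were above 0 in both treatments, and how many had no overlap of the genotypes was not counted. AT2G26600 was higher in as2-1 as well, by 0.37 and 0.85 on the log2 scale. The unannotated probe set 245035_at, numbered among the At2g26 probe sets, had 645.6 in Col-0 and 422.6 in as2-1 without the inhibitor, then 161.3 and 69.6 with it. It fell on 10H-CPT, with a limma treatment effect of -2.30 ± 0.21 and an adjusted p of 0.00777, and completes the 3 members called lower. It was not called with a floor at the 20th percentile or with no filter on dim probe sets, settings in which limma called 0 of all probe sets, with 14.2% and 9.56% of them at an unadjusted p under 0.05. It was also the only member at least 2-fold lower in both pairs of the treatment, where 0.989% of all probe sets were. No member was at least 2-fold higher in both treatment pairs or past 2-fold in both genotype pairs. Over all probe sets those shares were 0.786% for treatment, and 0.345% higher and 0.477% lower for genotype.

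Across all classes, few members passed 2-fold between single arrays. Between as2-1 and Col-0 on DMSO, 0 of 99 measured members did, where 1.04% of all probe sets were higher and 1.09% lower. On 10H-CPT, 245035_at was lower and none of 98 was higher, where 1.57% and 2.69% of all were. With the inhibitor in Col-0, 245035_at was again the only one lower of 99 and none was higher, where 2.1% and 1.55% of all were. In as2-1, 9 of 99 were lower, at a background of 2.3%, and none was higher, at 2.96%. These 9 were atpH, psaC, petL, ccmFC, 244944_s_at, AT2G07751, 244903_at, 244906_at and 245035_at. For as2-1 with the inhibitor set against Col-0 without it, YAB5 was higher and 6 of 98 members were lower, where 4.27% and 3.53% of all were.

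Few nuclear genes of the same pathways could be matched to the arrays. None of the listed organelle RNA polymerases and sigma factors, polymerase-associated proteins or organelle gyrase genes had a named probe set. Of the listed nuclear photosynthesis symbols, 3 of 25 were matched. LHCB4.2, an antenna protein gene of photosystem II, had signals of 3688.1 in Col-0 without the inhibitor and 2186.7 with it, and of 2375.9 and 1626.4 in as2-1. LHCB4.1 had 4948.1, 4158.0, 4848.1 and 4100.6, and ATPC1, for a nuclear-encoded subunit of the plastid ATP synthase, 2073.2, 1940.2, 1703.0 and 1731.6. LHCB4.2 was the one of the 3 whose highest value, that of untreated Col-0, was well apart from the other arrays. Of the 13 symbols of the mitochondrial retrograde response only NDB2 was matched. It encodes an alternative NADH dehydrogenase, and its signals were 41.9, 38.5, 48.0 and 75.8, near the floor.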

How the data were processed

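The authors deposited MAS5 signal intensities, 1 per probe set and array on a linear scale; MAS5 is named in the submitters' processing notes, and the sources used here give neither its version nor its scaling target. No scanner files or detection calls were used here. Arrays were rescaled to one trimmed mean (2% left out at each end), signals below the 40th percentile of all signals (46.6) were set to that floor, and log2 was taken. A probe set counted as measured when 1 array of the pair was above the floor. Single arrays were compared by a 2-fold threshold with no test. Averaged effects were fitted with limma 3.58.1 (R 4.3.3) on genotype and treatment over 13767 probe sets with a mean above the floor, with Benjamini-Hochberg adjustment at 0.05, 1 residual and 5.93 prior degrees of freedom. The fit was also run on simulated additive data with independent noise and a genotype effect in some probe sets. Those data held no treatment effect and no departure from additivity, so they cannot check the treatment calls. The number of arrays limits every precision.

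Gene names came from the platform annotation, in which 13513 probe sets have 1 symbol, 503 several and 8730 none, updated through the reference gene table. Mitochondrial entries were matched by symbol or synonym. Named members are a fixed set of symbols, the 4 per factor and direction with the largest smaller change, the 3 highest and lowest differences of differences, and the 5 brightest per genome; other genes were named to describe a complex or cluster, after their values were seen. Members, lists and clusters were chosen with earlier results of these data known. Counts and figures used Python 3.11.15, numpy 2.4.6, pandas 2.3.3 and matplotlib 3.10.9. Alternatives were the values as deposited, scaling without the members, quantile normalization, a lower and a higher floor (20th or 60th percentile), dropping probe sets that end in _s_at or _x_at, other fold thresholds and other limma settings.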

Additional observations from a re-analysis of the deposited data

Results flagged for a closer look

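Some values pointed one way in the first pair of a factor and the opposite way in the second. The difference rests on 1 array per group and was not tested. The median of the plastid members for 10H-CPT over DMSO was 0.16 on the log2 scale in Col-0 and -0.12 in as2-1. The median of the mitochondrial members for as2-1 over Col-0 was 0.09 on DMSO and -0.26 on 10H-CPT. The nad9 ratio of as2-1 over Col-0 was 0.35 on DMSO and -0.53 on 10H-CPT, and that of probe set 244944_s_at was 0.54 and -0.43. All of these involve the array of as2-1 on 10H-CPT, whose part in them was not tested.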

How the results depend on the processing

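With 1 array per group no sample could be left out, and depth in the sense of reads does not apply. No paired analysis was possible because each group holds 1 sample, so none could be matched by replicate. The limma fit took genotype and treatment together as additive terms. The values as deposited and scaling without the members kept the medians and counts below within the limits used here (0.1 on the log2 scale, 1.5 times for counts), but both barely change the values. The plastid and mitochondrial medians kept their sign under the 6 alternatives run on them. Quantile normalization brought the plastid median between the genotypes on 10H-CPT to -0.18, with 65 of 72 members below 0, and turned the sign of ratios of up to 0.4 of petB, psaB, atpB, atpE, rps7 and ndhA, and of the ATP synthase and ribosomal lists; the cause was not tested. The mitochondrial median for the inhibitor moved in as2-1 to -0.79 under the higher floor (60th percentile) and, in as2-1 and Col-0, to -0.18 and -0.04 without _s_at and _x_at probe sets, where fewer members remained. The treatment calls among members were 3 lower in the main setting, 0 under the lower floor (20th percentile) and 0 with no filter on dim probe sets. In as2-1 over Col-0 on DMSO, 0 members were past 2-fold; at 1.5-fold 1 was higher and 4 lower, and with the lower floor 1 was lower. On 10H-CPT, 0 were higher and 1 lower; at 1.5-fold 3 and 7, at 3-fold 0 lower, with the lower floor 1 and 2, with the higher floor 0 lower. For 10H-CPT in Col-0, 0 were higher and 1 lower; at 1.5-fold 3 and 3, with the lower floor 1 and 2. In as2-1, 0 were higher and 9 lower; at 1.5-fold 4 and 14, at 3-fold 2 lower, with the lower floor 1 higher. For as2-1 on 10H-CPT over Col-0 on DMSO, 1 was higher and 6 lower; at 1.5-fold 2 and 15, at 3-fold 0 and 2, with the lower floor 2 and 11, with the higher floor 0 higher. In both pairs at 1.5-fold, 1 was higher and 1 lower for genotype, and 1 higher and 3 lower for treatment. In these counts the threshold and the floor themselves decide which members qualify.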
